A study of Homo sapiens with 6 samples.

Results

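A set of 10 receptor tyrosine kinases outside the EGFR and ephrin receptor families was followed in AsPC-1 pancreatic cancer cells with raised MMP28. The genes were chosen by name, as the receptors MET, MST1R, AXL, IGF1R, INSR, FGFR1, FGFR2, FGFR3, FGFR4 and DDR1. All 10 were found among the 58735 genes of the table, and all 10 passed the filter on low counts that left 15319 genes for testing. RNA was sequenced from AsPC-1, an established human cell line of pancreatic cancer, in 6 libraries. The group named Vector here held 3 libraries, titled NC and labelled wild type. They were taken to be the study's empty lentivirus control, which its account of the sequencing calls only the control. The labels did not say whether these cells had received a virus. The OE-MMP28 group held 3 libraries, titled OE, of cells that had received a lentivirus with the cDNA of MMP28, a secreted matrix metalloproteinase. By the study's methods the overexpressing cells were made with a GFP and puromycin resistance vector and kept under puromycin, with no cloning step described. The labels did not say that replicates were separate cultures, so the p-values below measure only the spread between these libraries, which may be technical.

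Receptor tyrosine kinases are single-pass membrane proteins that bind a growth factor, a matrix protein or a hormone outside the cell and phosphorylate tyrosines inside it. Adaptors such as GRB2, GAB1 and the insulin receptor substrates then dock on these tyrosines and pass the signal to the RAS and PI3-kinase pathways. In pancreatic ductal cancer MET, the receptor of hepatocyte growth factor, AXL, the receptor of GAS6, and IGF1R are known for their roles in invasion, survival and resistance to drugs.

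The promoters of the 3 receptors with the smallest p-values are shown because MET lay higher and IGF1R and INSR lay lower in OE-MMP28. Each sequence is the RefSeq window of 250 bases upstream of the annotated start on build GRCh38.p14, read 5′ to 3′ on the strand of the gene. Capitals mark GC boxes, a motif bound by the Sp1 family, searched as GGGCGG and its reverse complement CCGCCC. The windows were chr7:116671946-116672195 on the plus strand for MET, chr15:98648289-98648538 on the plus strand for IGF1R and chr19:7294415-7294664 on the minus strand for INSR.
MET: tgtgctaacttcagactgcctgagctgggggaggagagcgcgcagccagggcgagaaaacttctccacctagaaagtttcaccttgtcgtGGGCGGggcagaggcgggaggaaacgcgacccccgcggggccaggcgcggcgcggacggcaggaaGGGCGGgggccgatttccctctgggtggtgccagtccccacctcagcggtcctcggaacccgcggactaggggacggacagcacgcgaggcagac
IGF1R: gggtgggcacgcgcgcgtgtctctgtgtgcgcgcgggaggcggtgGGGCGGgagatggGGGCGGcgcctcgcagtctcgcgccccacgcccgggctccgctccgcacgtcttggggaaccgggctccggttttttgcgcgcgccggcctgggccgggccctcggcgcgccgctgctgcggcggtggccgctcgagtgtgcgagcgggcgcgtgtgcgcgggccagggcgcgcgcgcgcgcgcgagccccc
INSR: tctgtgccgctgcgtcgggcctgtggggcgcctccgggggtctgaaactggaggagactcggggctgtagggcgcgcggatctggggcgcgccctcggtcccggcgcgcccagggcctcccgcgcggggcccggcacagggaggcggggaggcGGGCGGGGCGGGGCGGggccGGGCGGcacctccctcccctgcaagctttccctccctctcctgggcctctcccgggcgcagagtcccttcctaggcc
The MET window held 2 GC boxes, 24 CpG dinucleotides and 68.4% G and C. The IGF1R window also held 2 GC boxes, with 48 CpG dinucleotides and 81.2% G and C. In the INSR window 4 matches were found, some of which shared bases, with 28 CpG dinucleotides and 78.4% G and C. Over all 35116 windows the median was 58.0% G and C and 11 CpG dinucleotides, and 42.6% held at least 1 GC box. All 3 windows were thus richer in G and C than the median window. The receptor that was higher and those that were lower in OE-MMP28 shared the motif, which was not particular to them. The windows of MST1R and FGFR3, which did not pass the test, held 4 and 8 matches. Of 2 windows for FGFR4, 1 held 7 matches and the other 0. An entry was present for 9 of the 10 receptors, and the RefSeq start of a gene need not equal the GENCODE start given below. A match of letters is a description and not a measured binding site.

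The lentiviral gene was checked before the receptors. The Vector libraries held MMP28 at 5.17, 9.11 and 8.43 FPKM and the OE-MMP28 libraries 13.1, 13.9 and 15.1 FPKM, where FPKM is a level scaled to gene length and library depth and values are listed in the order of replicates 1 to 3 throughout. The groups did not overlap, and the edgeR quasi-likelihood test gave a log2 fold change of 0.90 (SE 0.19, adjusted p = 0.00226). The exact two-sided permutation test of the FPKM gave p = 0.1, the smallest that 3 against 3 libraries allow. Total counts ranged from 13633249 to 16691458 per library. Mitochondrial genes took 11.9% to 14.8% of the counts in Vector and 8.8% to 11.9% in OE-MMP28. All 6 epithelial markers passed the filter, with summed levels of 2590 to 3540 FPKM in Vector and 3580 to 4370 FPKM in OE-MMP28, and among them MUC1 and KRT19 rose and CDH1 fell. None of 5 fibroblast markers passed the filter, and their summed level was 0.0756 to 0.166 FPKM in Vector and 0.102 to 0.13 FPKM in OE-MMP28. Of 5 macrophage markers 2 passed, CD14 and LYZ, and the summed level was 164 to 186 FPKM in Vector and 106 to 146 FPKM in OE-MMP28, nearly all of it LYZ, with PTPRC and CD163 at no more than 1 count. Of 4 endothelial markers 2 passed, PECAM1 and VWF, and the summed level was 0.0441 to 0.17 FPKM in Vector and 0.179 to 0.293 FPKM in OE-MMP28, with KDR at 0 in every library and CDH5 at no more than 1 count. LYZ had a log2 fold change of -0.45 (edgeR adjusted p = 0.0376), a call lost without Vector replicate 2 (0.0767), Vector replicate 3 (0.128) or OE-MMP28 replicate 3 (0.152) and with limma on log2(FPKM + 1) (0.0559) or log2(FPKM + 0.1) (0.0546), and an antisense gene covers 34.0% of its exon length. PECAM1 rose from at most 4 to at most 30 counts. The part of the other cell type markers in the receptor values was not tested.

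MET was the most abundant receptor tyrosine kinase transcript of both groups by mean FPKM and the only member that rose. IGF1R was the only member that fell, INSR lay lower by a similar amount without passing the test, and the other 7 did not pass the test. The background over all genes was 11.7% called higher and 11.6% called lower at an adjusted p under 0.05, 23.4% in either direction. With 1 of 10 members higher and 1 of 10 lower, the receptors were called about as often as genes in general. The median log2 fold change of the 10 members was 0.073, beside 0.014 over all 15319 genes. The FPKM of the groups did not overlap for 4 members, MET on the higher side and IGF1R, INSR and FGFR1 on the lower side, where 38.1% of all genes did not overlap, 19.0% higher and 19.1% lower. In bulk RNA, fewer cells with a transcript and less transcript per cell cannot be told apart.

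**Figure D1:**
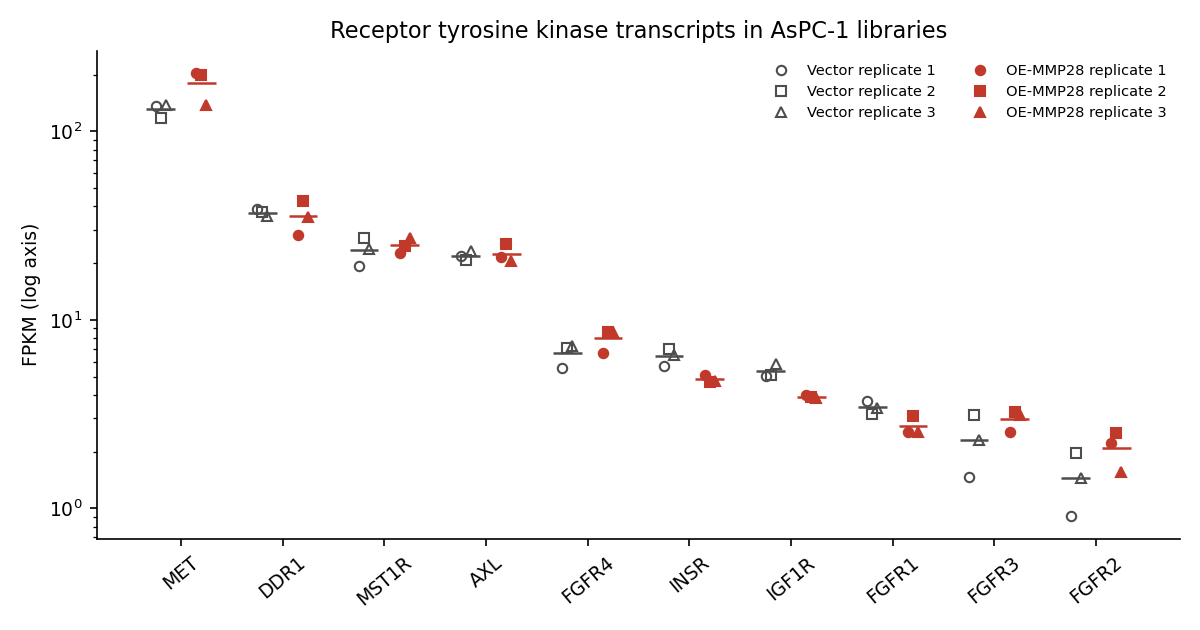
FPKM of the 10 receptors on a log axis, with open grey symbols for Vector replicates 1 to 3, filled red symbols for OE-MMP28 replicates 1 to 3 and short lines for group means (n = 3 each). MET stands at 131 and 180 FPKM on average, far above FGFR2 at 1.44 and 2.09, and the closest spread between libraries is that of IGF1R in OE-MMP28, from 3.84 to 3.97.

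MET and MST1R form the family of scatter factor receptors. MET (ENSG00000105976, chromosome 7, 116672390 to 116798386, plus strand) binds hepatocyte growth factor. It was present at 136, 117 and 138 FPKM in the Vector libraries, from 14676, 11160 and 14300 counts. In the OE-MMP28 libraries it was present at 204, 198 and 138 FPKM, from 22758, 22056 and 16387 counts. The groups barely separated, because OE-MMP28 replicate 3 sat level with Vector replicate 3 after rounding, and the other OE-MMP28 libraries stood well above. The means were 131 ± 11.5 and 180 ± 36.3 FPKM (SD, n = 3), which is 1.38-fold. By edgeR the log2 fold change was 0.47 (SE 0.16, 95% CI 0.15 to 0.80, unadjusted p = 0.00681, adjusted p = 0.0338). In Vector 98.7% of the tested genes had a lower mean FPKM than MET.

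The MET call depended on single libraries. Without OE-MMP28 replicate 3 the log2 fold change was 0.63 (edgeR adjusted p = 0.00987). It was 0.39 when OE-MMP28 replicate 2 was left out (edgeR adjusted p = 0.17) and 0.37 when OE-MMP28 replicate 1 was left out (edgeR adjusted p = 0.14). The call was also lost without Vector replicate 2, at 0.40 and an edgeR adjusted p of 0.0805, and without Vector replicate 3, at 0.52 and 0.0657. The direction was higher in all 18 alternative settings, while 10 of the 18 kept an adjusted p under 0.05. Counts without mitochondrial genes kept the call. The 21 tested genes within 5 Mb of MET had a median log2 fold change of 0.08.

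MST1R (ENSG00000164078, chromosome 3, 49887002 to 49903873, minus strand), also called RON, is the receptor of macrophage stimulating protein. Levels were 19.3, 27.2 and 23.6 FPKM in the Vector libraries against 22.7, 24.7 and 27.2 FPKM in the OE-MMP28 libraries. The groups overlapped over most of their range. The means were 23.4 ± 3.98 and 24.9 ± 2.27 FPKM (SD, n = 3), and the log2 fold change was 0.10 (95% CI -0.23 to 0.43) with an edgeR adjusted p of 0.687. Without Vector replicate 1 the sign turned, to -0.019. An antisense transcript, AC105935.2, covers 6.23% of the exon length of MST1R, and whether counting used the strand was not given.

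The difference between these receptors was taken within each library as the log2 ratio of MST1R to MET in FPKM. It was -2.82, -2.11 and -2.54 in the Vector libraries and -3.17, -3.00 and -2.35 in the OE-MMP28 libraries. The means were -2.49 ± 0.36 and -2.84 ± 0.44 (SD, n = 3), and the groups overlapped. The OE-MMP28 minus Vector difference of -0.35 gave p = 0.4 in the exact two-sided permutation test, 0.6 after adjustment over 2 ratios, where the smallest p the design allows is 0.1. It ranged from -0.16 without Vector replicate 2 to -0.59 without OE-MMP28 replicate 3. A change of MET relative to MST1R was therefore not shown.

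AXL (ENSG00000167601, chromosome 19, 41219203 to 41261766, plus strand) is a TAM family receptor for the vitamin K dependent ligand GAS6. Vector libraries gave 21.9, 20.7 and 23.1 FPKM, compared with 21.4, 25.2 and 20.5 FPKM in OE-MMP28 libraries. The OE-MMP28 libraries held both the highest and the lowest value. The means were 21.9 ± 1.18 and 22.4 ± 2.50 FPKM (SD, n = 3), and the log2 fold change was 0.044 (95% CI -0.26 to 0.35) with an edgeR adjusted p of 0.864. The value was -0.065 with OE-MMP28 replicate 2 left out.

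Among the other genes of the TAM group MERTK fell and GAS6 rose, while no difference was detected for AXL. MERTK, a receptor that shares GAS6 with AXL, was present at 4.56, 5.34 and 5.41 FPKM in the Vector libraries and at 2.03, 1.72 and 1.32 FPKM in the OE-MMP28 libraries. It fell by 1.59 on the log2 scale with an edgeR adjusted p of 9.74e-06. TYRO3, the remaining TAM receptor, had a log2 fold change of -0.20 (edgeR adjusted p = 0.453). In Vector the GAS6 transcript stood at 1.70, 2.05 and 1.72 FPKM, and in OE-MMP28 at 2.63, 3.94 and 4.60 FPKM. It rose by a log2 fold change of 1.05 with an edgeR adjusted p of 0.00134, and the antisense gene GAS6-AS1 covers 7.01% of its exon length. PROS1, the other TAM ligand, had a log2 fold change of 0.16 and an edgeR adjusted p of 0.514. The difference in change between AXL and MERTK was not tested.

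IGF1R and INSR belong to the insulin receptor family, and their subunits pair with each other into homodimers and hybrids. The related INSRR had at most 1 count in any library and was not tested. IGF1R (ENSG00000140443, chromosome 15, 98648539 to 98964530, plus strand) binds the insulin-like growth factors. It was present at 5.03, 5.12 and 5.81 FPKM in the Vector libraries, from 1073, 965 and 1193 counts. In the OE-MMP28 libraries it was present at 3.97, 3.87 and 3.84 FPKM, from 876, 856 and 901 counts. All OE-MMP28 libraries lay below all Vector libraries, and they lay close together. The means were 5.32 ± 0.423 and 3.90 ± 0.0688 FPKM (SD, n = 3), which is 0.732-fold. By edgeR the log2 fold change was -0.44 (SE 0.15, 95% CI -0.75 to -0.13, unadjusted p = 0.00761, adjusted p = 0.0366).

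The direction of IGF1R was lower in all 18 alternative settings, with log2 fold changes from -0.49 to -0.37, and the call held in 11 of them. It was lost without Vector replicate 3, at -0.37 and an edgeR adjusted p of 0.207. It was also lost without OE-MMP28 replicate 2 (edgeR adjusted p = 0.127) and without OE-MMP28 replicate 3 (edgeR adjusted p = 0.0746). The 30 tested genes within 5 Mb had a median log2 fold change of 0.036, so IGF1R lay below its neighbourhood.

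INSR (ENSG00000171105, chromosome 19, 7112255 to 7294034, minus strand) is the insulin receptor. It was present at 5.70, 7.0 and 6.51 FPKM in the Vector libraries, from 911, 989 and 1002 counts. In the OE-MMP28 libraries it was present at 5.10, 4.68 and 4.71 FPKM, from 843, 776 and 829 counts. The groups did not overlap, with Vector replicate 1 the nearest to the OE-MMP28 libraries. The means were 6.40 ± 0.656 and 4.83 ± 0.232 FPKM (SD, n = 3), which is 0.755-fold. By edgeR the log2 fold change was -0.40 (SE 0.15, 95% CI -0.71 to -0.079, unadjusted p = 0.0168, adjusted p = 0.0646), so INSR missed the threshold. It passed in 7 of 18 alternatives, among them without Vector replicate 1 at -0.47 and an edgeR adjusted p of 0.0475, and with DESeq2 at an adjusted p of 0.0331. The 196 tested genes within 5 Mb had a median log2 fold change of 0.13, and measured against them INSR had -0.53 (edgeR adjusted p = 0.0226). Here and below the median of the neighbours was entered as a fixed value, so the p-value does not carry its spread.

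Their balance was compared as the log2 ratio of INSR to IGF1R. It was 0.18, 0.45 and 0.16 in the Vector libraries and 0.36, 0.27 and 0.30 in the OE-MMP28 libraries. INSR was thus the slightly more abundant transcript per length in all 6 libraries. The difference of 0.045 gave p = 0.6 in the exact two-sided permutation test, 0.6 after adjustment over 2 ratios. The isoforms A and B of INSR, which differ by a single alternative exon, are not separated by counts per gene.

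Of the substrates that carry the signal of this family IRS2 fell, and IRS1 did not pass the test. IRS2, insulin receptor substrate 2, was present at 19.8, 33.0 and 23.5 FPKM in the Vector libraries and at 13.2, 14.2 and 10.4 FPKM in the OE-MMP28 libraries. It fell by 1.00 on the log2 scale with an edgeR adjusted p of 0.000535, and all OE-MMP28 libraries lay below all Vector libraries. IRS1 had a log2 fold change of 0.27 (edgeR adjusted p = 0.22). ENPP1, a membrane protein that binds and restrains the insulin receptor, fell by 0.88 on the log2 scale with an edgeR adjusted p of 0.00428. The ligands INS, IGF1 and IGF2 had a count of 0 in every library, where 3 counts correspond to 0.18 to 0.22 CPM (counts scaled to the total of a library). IGF2 had overlapping entries on the same strand of chromosome 11, at 2129112 to 2149603 and at 2129112 to 2158658. Whether reads that fall on both entries were counted was not given, so for IGF2 the count of 0 sets no such limit.

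The 4 fibroblast growth factor receptors were expressed together at low levels, and none passed the test. FGFR4 (ENSG00000160867, chromosome 5, 177086886 to 177098144, plus strand), the main receptor of FGF19, was the most abundant by FPKM. This order rests on the gene lengths used, 13842 bases for FGFR1 and 4829 for FGFR4. In Vector FGFR1 had more counts, 788, 591 and 693 against 411, 465 and 519 for FGFR4. The Vector libraries held 5.57, 7.12 and 7.29 FPKM and the OE-MMP28 libraries 6.66, 8.61 and 8.65 FPKM. The groups overlapped, because OE-MMP28 replicate 1 lay below Vector replicates 2 and 3. Its log2 fold change was 0.27 (95% CI -0.09 to 0.63, edgeR adjusted p = 0.271), and from 0.16 without Vector replicate 1 to 0.38 without OE-MMP28 replicate 1.

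FGFR1 (ENSG00000077782, chromosome 8, minus strand), whose IIIc form is typical of mesenchymal cells, was present at 3.72, 3.16 and 3.40 FPKM in the Vector libraries and at 2.54, 3.08 and 2.54 FPKM in the OE-MMP28 libraries. The groups did not overlap, with OE-MMP28 replicate 2 just under Vector replicate 2. FGFR1 had a log2 fold change of -0.32 (95% CI -0.65 to 0.011, edgeR adjusted p = 0.153). The 49 tested genes within 5 Mb had the same median, -0.32, and measured against them FGFR1 had -0.0043 (edgeR adjusted p = 0.989).

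FGFR2 (ENSG00000066468, chromosome 10, 121478334 to 121598458, minus strand) was the least abundant member by mean FPKM, and its IIIb form is typical of epithelia. Levels were 0.906, 1.96 and 1.44 FPKM in the Vector libraries against 2.22, 2.51 and 1.55 FPKM in the OE-MMP28 libraries, from 105 to 301 counts. Vector replicate 2 lay inside the OE-MMP28 range and Vector replicate 1 far below it. The log2 fold change was 0.55 (95% CI 0.044 to 1.06), the largest of the 10, with an edgeR adjusted p of 0.108. It was 0.84 without Vector replicate 2 (edgeR adjusted p = 0.0126), but 0.31 without Vector replicate 1 (edgeR adjusted p = 0.351) and 0.38 without OE-MMP28 replicate 2 (edgeR adjusted p = 0.409). The 54 tested genes within 5 Mb had a median log2 fold change of -0.59, the furthest from 0 among the neighbourhoods of the members, and measured against them FGFR2 had 1.14 (edgeR adjusted p = 0.00355).

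FGFR3 (ENSG00000068078, chromosome 4, 1793293 to 1808872, plus strand), known for activating mutations in bladder cancer and skeletal dysplasia, was present at 1.46, 3.11 and 2.30 FPKM in the Vector libraries and at 2.54, 3.25 and 3.14 FPKM in the OE-MMP28 libraries, from 108 to 256 counts. As with FGFR2, Vector replicate 1 was lowest and Vector replicate 2 lay inside the OE-MMP28 range. The log2 fold change was 0.40 (95% CI -0.09 to 0.88) with an edgeR adjusted p of 0.233. It was 0.68 without Vector replicate 2 (edgeR adjusted p = 0.0385) and 0.15 without Vector replicate 1 (edgeR adjusted p = 0.657).

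Within the family the make-up was described as the share of each receptor in the summed FPKM of FGFR1 to FGFR4. The sum was 11.7, 15.4 and 14.4 FPKM in the Vector libraries and 14, 17.4 and 15.9 FPKM in the OE-MMP28 libraries. FGFR4 held 48.2% ± 2.08 in Vector and 50.5% ± 3.56 in OE-MMP28 (SD, n = 3). FGFR1 held 32%, 20.6% and 23.5% in the Vector libraries and 18.2%, 17.7% and 16% in the OE-MMP28 libraries. The share of FGFR1 was thus lower in every OE-MMP28 library, with the largest gap to Vector replicate 1. FGFR2 held 10.2% ± 2.52 and 13.3% ± 3.22, and FGFR3 16.2% ± 3.91 and 18.9% ± 0.833, in Vector and OE-MMP28 (SD, n = 3).

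The ligand FGF19 rose, while its receptor FGFR4 did not pass the test. Vector libraries gave 23.1, 35.7 and 22.8 FPKM of FGF19, compared with 72.2, 72.7 and 76.0 FPKM in OE-MMP28 libraries. Even the lowest OE-MMP28 library stood far above the highest Vector library, and the log2 fold change was 1.45 with an edgeR adjusted p of 7.12e-06. KLB, the co-receptor that FGF19 uses with FGFR4 in liver, had 3 to 8 counts per library and was not tested. FGF18 rose from 6, 16 and 6 counts in Vector to 50, 32 and 68 counts in OE-MMP28, with a log2 fold change of 2.24 and an edgeR adjusted p of 0.00117. It was named after its values were seen.

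DDR1 (ENSG00000204580, chromosome 6, 30876421 to 30900156, plus strand) is a receptor for collagen and the most abundant member after MET. In Vector the transcript stood at 38.5, 37.2 and 35.4 FPKM, and in OE-MMP28 at 28.1, 42.8 and 35.2 FPKM. The Vector libraries lay within the range of the OE-MMP28 libraries, which spread widely. The means were 37.0 ± 1.55 and 35.4 ± 7.32 FPKM (SD, n = 3), and the log2 fold change was -0.053 (95% CI -0.38 to 0.28) with an edgeR adjusted p of 0.849. It was 0.076 with OE-MMP28 replicate 1 left out. Its collagen ligands COL1A1, COL1A2, COL3A1 and COL4A1 were not tested, with counts of 11 or fewer in each library, while COL4A2, which was tested, had 8 to 23 counts and a log2 fold change of -0.40 (edgeR adjusted p = 0.615).

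**Figure D2:**
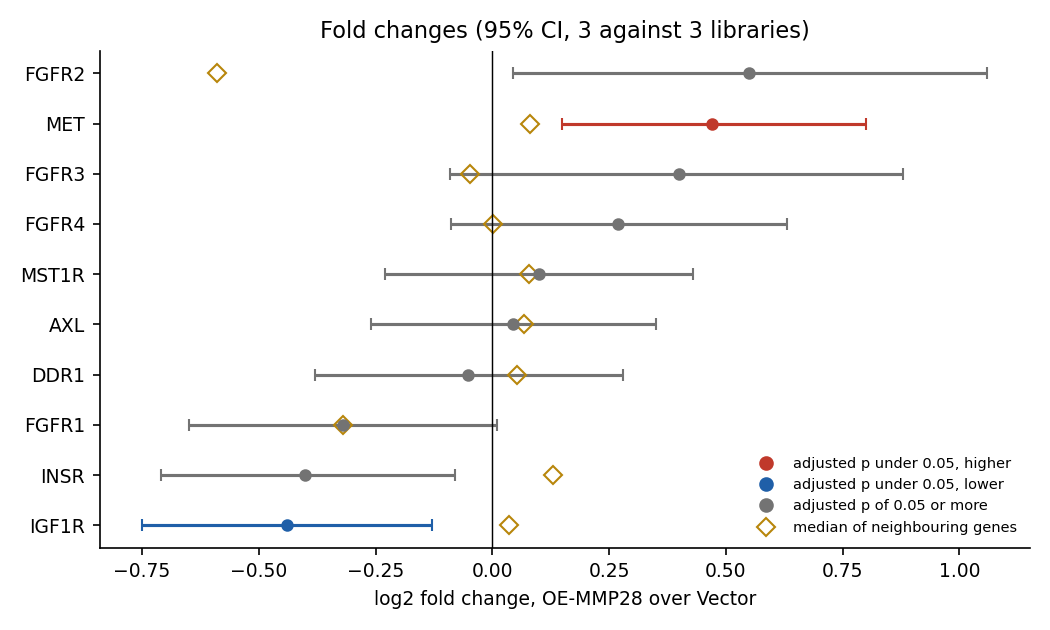
Log2 fold change of OE-MMP28 over Vector for each receptor, as points with 95% confidence intervals (n = 3 per group), coloured by edgeR adjusted p, and open diamonds for the median of the tested genes within 5 Mb on each side. MET at 0.47 and IGF1R at -0.44 are the called members, and the diamond lies on the point for FGFR1 and far to its left for FGFR2.

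The order of levels was nearly the same in both groups. In Vector it ran, by mean FPKM, from MET over DDR1, MST1R, AXL, FGFR4, INSR, IGF1R, FGFR1 and FGFR3 to FGFR2. The library ranges of neighbours overlapped for MST1R and AXL, for FGFR4 and INSR, for INSR and IGF1R, and for FGFR3 and FGFR2. Within single Vector libraries INSR stood above IGF1R and FGFR3 above FGFR2 every time, whereas the order of MST1R and AXL, and of FGFR4 and INSR, changed between libraries. In OE-MMP28 FGFR3 stood before FGFR1, with overlapping ranges and the same 2.54 FPKM in replicate 1, and MST1R and AXL overlapped as well, with an order that changed between libraries. The ranges of FGFR4 and INSR, and of INSR and IGF1R, no longer touched in OE-MMP28.

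Against a list of 58 receptor tyrosine kinases MET ranked at 1 in both groups by mean FPKM. By counts not divided by length, EGFR stood above MET in Vector replicate 1 (16292 against 14676) and Vector replicate 3 (14663 against 14300). In Vector the next were EGFR at 76.5, ERBB3 at 57.6, EPHA2 at 51.6 and LMTK2 at 50.3 FPKM on average, and in OE-MMP28 EPHA2 at 87.7, EGFR at 70.5, ERBB3 at 38.6 and DDR1 at 35.4 FPKM. MET alone held 25.3%, 22.6% and 25.7% of the summed FPKM of the list in the Vector libraries and 35.8%, 31.8% and 27.4% in the OE-MMP28 libraries. The 10 members together held 44.8% ± 1.01 in Vector and 50.6% ± 1.96 in OE-MMP28 (SD, n = 3) and the groups did not overlap. This was not a rise of the whole set, since MET alone went from 24.5% to 31.7% on average. The mean shares of AXL, IGF1R, INSR, FGFR1 and DDR1 were lower in OE-MMP28, and those of MST1R, FGFR2, FGFR3 and FGFR4 slightly higher. Outside the set ERBB3 went from 10.9% to 6.84% and EPHA2 from 9.71% to 15.6%, which also moves the shares. Of the other 48 kinases 22 were tested, 4 rose and 9 fell, with a median log2 fold change of -0.30, and 12 had a count of 0 in every library. Over all genes tested 11.7% were called higher and 11.6% lower, with a median of 0.014. Among the called kinases with a mean of at least 1 FPKM over the 6 libraries, the furthest from 0 were MERTK, ROR1 (1.58, edgeR adjusted p = 8.58e-05), EPHB6 (1.47, edgeR adjusted p = 8.15e-06), EPHA4 (-1.30, edgeR adjusted p = 2.39e-05), EPHA10 (-0.92, edgeR adjusted p = 0.0089) and, level with each other, EPHA2 (0.78, edgeR adjusted p = 0.00103) and LMTK2 (-0.78, edgeR adjusted p = 0.000952). EPHA1, at 1.10 FPKM in Vector and 0.511 FPKM in OE-MMP28 and so below that limit, had -1.08 (edgeR adjusted p = 0.00873). Also below it, PTK7 had -3.24 (edgeR adjusted p = 0.00121), ROR2 -2.58 (edgeR adjusted p = 0.00112) and AATK -1.40 (edgeR adjusted p = 0.0121). These 3 had at most 34, 34 and 65 counts in any library. LMTK2, EPHA1, PTK7, ROR2 and AATK were named after their values were seen. No member had a log2 fold change as far from 0 as these.

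**Figure D3:**
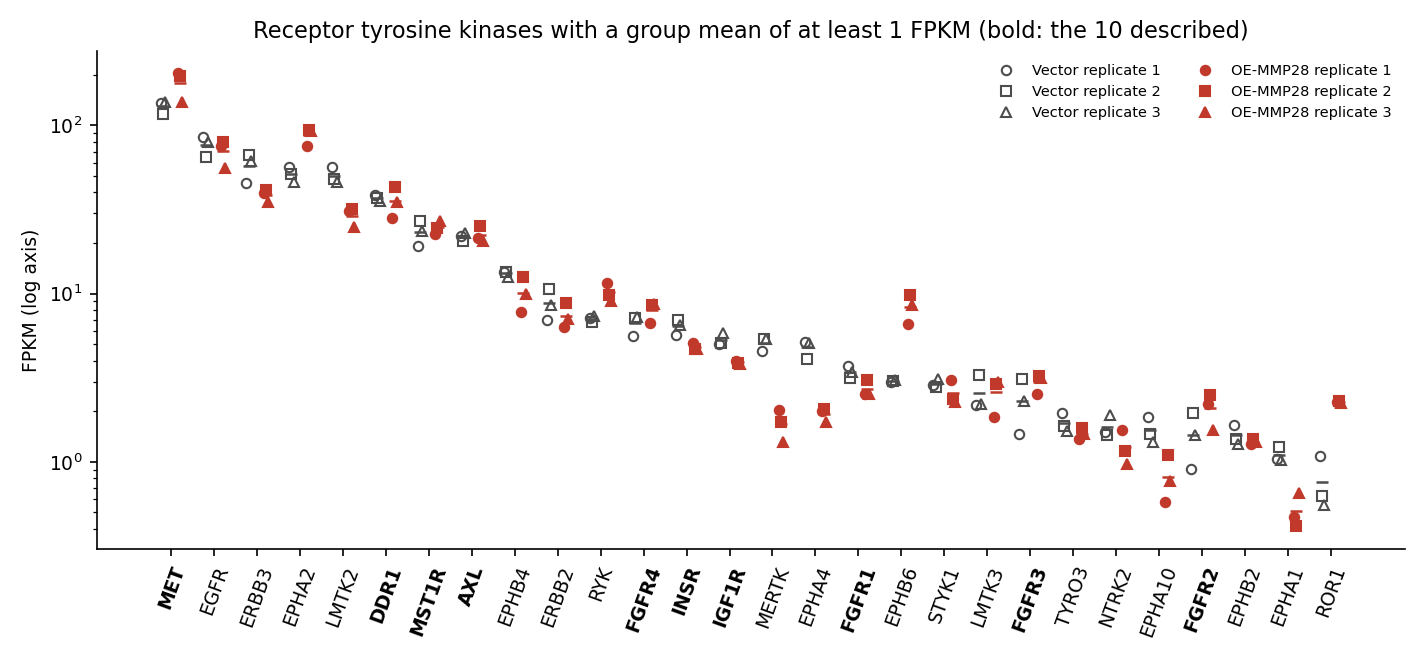
FPKM on a log axis of the receptor tyrosine kinases with a group mean of at least 1 FPKM, ordered by the Vector mean, with the 10 members in bold, open grey symbols for Vector, filled red symbols for OE-MMP28 and short lines for means (n = 3 each). MET is highest in every library, and gaps between groups wider than that of any member are seen, such as MERTK at 5.11 and 1.69 FPKM.

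FGF18, FGF19 and GAS6 were the ligands that rose, and the ligands of MET and MST1R were scarce. HGF had 1 count in 1 library and 0 in the others, and MST1 had 24 to 71 counts with a log2 fold change of -0.34 and an edgeR adjusted p of 0.53. Of 30 ligands 8 were tested, 3 rose and none fell, with a median log2 fold change of 0.25. Beside this list and those below, 11.7% of all genes tested were called higher and 11.6% lower, with a median of 0.014. No list was tested for an excess of calls. Of 7 proteases that activate these ligands and their inhibitors, 4 were tested and 2 rose. ST14, the protease matriptase that activates pro-HGF, had a log2 fold change of 0.54 and an edgeR adjusted p of 0.0336, with overlapping groups and a median of 0.58 among its neighbouring genes. SPINT2, an inhibitor of such proteases, had 0.47 and an edgeR adjusted p of 0.0394. Without Vector replicate 3, OE-MMP28 replicate 2 or OE-MMP28 replicate 3 the calls in this list were 0, with edgeR adjusted p-values of ST14 of 0.197, 0.213 and 0.0746 and of SPINT2 of 0.22, 0.223 and 0.117. Without Vector replicate 1 ST14 was not called either (edgeR adjusted p = 0.0789).

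Of 10 co-receptors and partners 8 were tested, 2 rose and 3 fell, with a median log2 fold change of -0.28. CD44, whose variant forms present ligand to MET, was present at 29, 25.2 and 25.2 FPKM in the Vector libraries and at 49.4, 43.3 and 42.7 FPKM in the OE-MMP28 libraries. It rose by 0.78 on the log2 scale with an edgeR adjusted p of 0.000585, and the groups lay far apart. FGFBP1, a secreted protein that carries fibroblast growth factors, rose by 0.77 with an edgeR adjusted p of 0.0177. This call was lost without Vector replicate 2 (0.0593), Vector replicate 3 (0.086), OE-MMP28 replicate 1 (0.061) or OE-MMP28 replicate 2 (0.0773), each an edgeR adjusted p. PLXNB1, a semaphorin receptor that associates with MET, fell by 0.71 with an edgeR adjusted p of 0.00701. CDH1, the epithelial cadherin, fell by 0.59 with an edgeR adjusted p of 0.0113, or 0.0609 without OE-MMP28 replicate 3, and against its neighbouring genes it had -0.21 (edgeR adjusted p = 0.422). SDC1, a heparan sulfate proteoglycan, fell by 0.50 with an edgeR adjusted p of 0.0181, where its neighbouring genes had a median of -0.54.

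Of 23 adaptors and substrates 22 were tested, 3 rose and 5 fell, with a median log2 fold change of -0.043. Without OE-MMP28 replicate 2 the calls in this list dropped from 8 to 5. Besides IRS2, the kinase SRC fell by 0.85 (edgeR adjusted p = 0.000478), the docking protein GAB2 by 0.84 (edgeR adjusted p = 0.00142) and the RAS exchange factor SOS1 by 0.72 (edgeR adjusted p = 0.00268). The PI3-kinase subunits PIK3R1 and PIK3CB rose by 0.83 (edgeR adjusted p = 0.00103) and 0.70 (edgeR adjusted p = 0.00751). Against its neighbouring genes SOS1 had -0.42 (edgeR adjusted p = 0.0755). PIK3CB was not called without OE-MMP28 replicate 2 (edgeR adjusted p = 0.0618), and against its neighbouring genes its log2 fold change was 0.056. GRB2, the adaptor common to most of the receptors, had 0.016 with an edgeR adjusted p of 0.953.

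Of 16 negative regulators 15 were tested, 2 rose and 2 fell, with a median log2 fold change of 0.00021. LRIG1, a membrane protein that promotes degradation of MET and of other receptors, was present at 4.47, 3.32 and 5.89 FPKM in the Vector libraries and at 11.5, 12.7 and 11.5 FPKM in the OE-MMP28 libraries. It rose by 1.39 on the log2 scale with an edgeR adjusted p of 2.28e-05, and the gene SLC25A26 on the opposite strand covers 12.9% of its exon length. CBLB, a ubiquitin ligase for activated receptors, fell by 1.19 with an edgeR adjusted p of 0.000351, while its relative CBL had a log2 fold change of -0.094 (edgeR adjusted p = 0.705). SH2B3, an adaptor known as LNK, rose by 0.68 with an edgeR adjusted p of 0.0029, and against its neighbouring genes it had 0.42 (edgeR adjusted p = 0.0622).

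All 8 genes for convertases and sheddases, which cut the receptors or their precursors, were tested, and 2 rose. FURIN, which cleaves the precursors of MET, IGF1R and INSR, had a log2 fold change of 0.22 (edgeR adjusted p = 0.371). PCSK5 had 0.51 with an edgeR adjusted p of 0.0194, and PCSK6 had 0.44 with 0.0419. The antisense gene AC023024.1 covers 10.8% of the exon length of PCSK6, and AC023024.2 on the same strand 9.17%. Without Vector replicate 3, OE-MMP28 replicate 1 or OE-MMP28 replicate 2 neither was called, with edgeR adjusted p-values of 0.131, 0.0659 and 0.0921 for PCSK5 and of 0.228, 0.0525 and 0.153 for PCSK6. PCSK6 was also lost without Vector replicate 2 (edgeR adjusted p = 0.0611) and without OE-MMP28 replicate 3 (edgeR adjusted p = 0.0817). Against its neighbouring genes PCSK5 had 0.31 (edgeR adjusted p = 0.171).

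All 8 splicing factors known to act on transcripts of these receptors were tested, 1 rose and 2 fell. ESRP1, which promotes the epithelial IIIb exon of FGFR2, stood at 13.9 ± 1.86 FPKM in Vector and 8.71 ± 1.81 FPKM in OE-MMP28 (SD, n = 3), with groups that did not overlap. It fell by 0.66 on the log2 scale with an edgeR adjusted p of 0.00908, or 0.0537 without OE-MMP28 replicate 3, and against its neighbouring genes it had -0.43 (edgeR adjusted p = 0.0985). RBFOX2 fell by 0.49 (edgeR adjusted p = 0.0242), a call lost without Vector replicate 2 (0.0777), OE-MMP28 replicate 2 (0.0665) or OE-MMP28 replicate 3 (0.103). MBNL1 rose by 0.55 (edgeR adjusted p = 0.0134), a call lost without Vector replicate 2 (0.0509) or OE-MMP28 replicate 1 (0.0629), and against its neighbouring genes it had -0.034. The antisense gene MBNL1-AS1 covers 11.4% of its exon length. Without Vector replicate 2 or OE-MMP28 replicate 3 only 1 of these 8 genes was called. The IIIb and IIIc forms of the FGF receptors are not separated by counts per gene, so exon use was not measured.

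**Figure D4:**
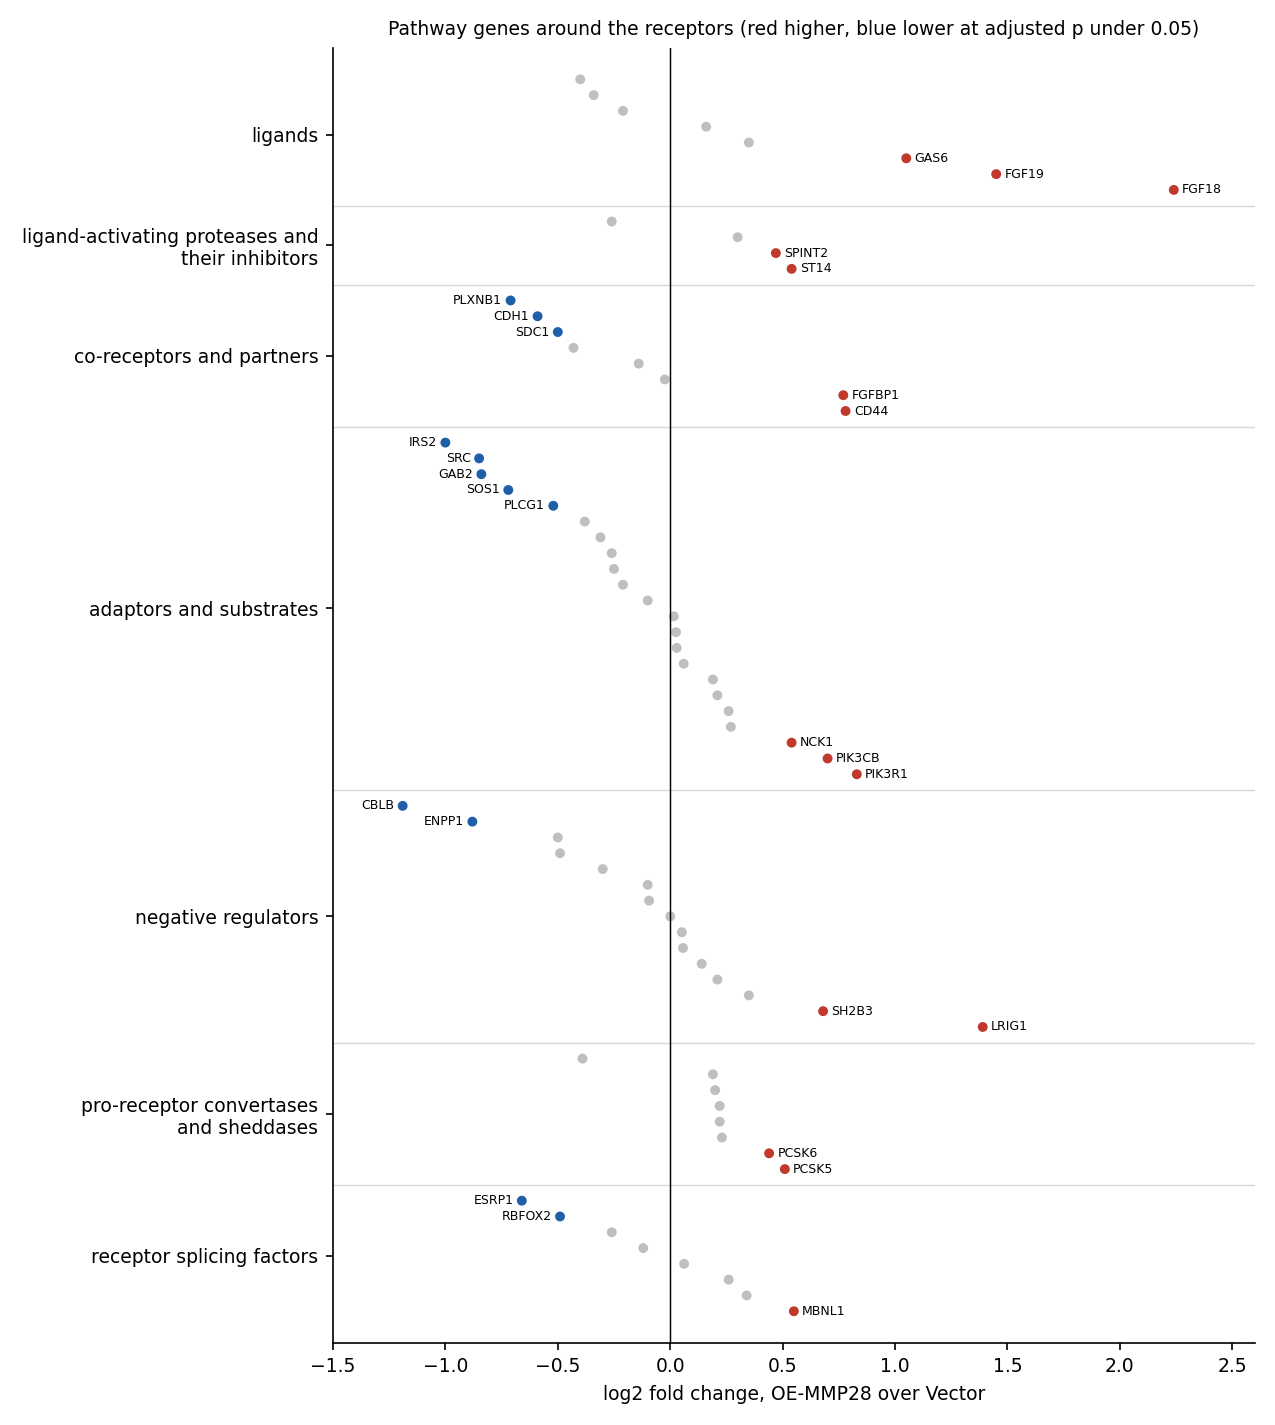
Log2 fold change of OE-MMP28 over Vector for every tested gene of 7 lists around the receptors, 1 point per gene, red where higher and blue where lower at an edgeR adjusted p under 0.05 and grey otherwise (n = 3 per group). FGF18, FGF19, LRIG1 and GAS6 lie furthest to the right at 2.24, 1.45, 1.39 and 1.05, and CBLB and IRS2 furthest to the left at -1.19 and -1.0.

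The genes whose pattern over the 6 libraries was most like that of MET were SERINC5 (Pearson r = 0.995), AEBP2 (r = 0.991) and ZDHHC20 (r = 0.990), out of 12257 genes compared on log2 CPM. For IGF1R they were TTC32 (r = 0.997), RDH10 (r = 0.995) and PMAIP1 (r = 0.995). These correlations describe 6 libraries that share 2 groups and were picked as the highest of many, so they carry no p.

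**Figure D5:**
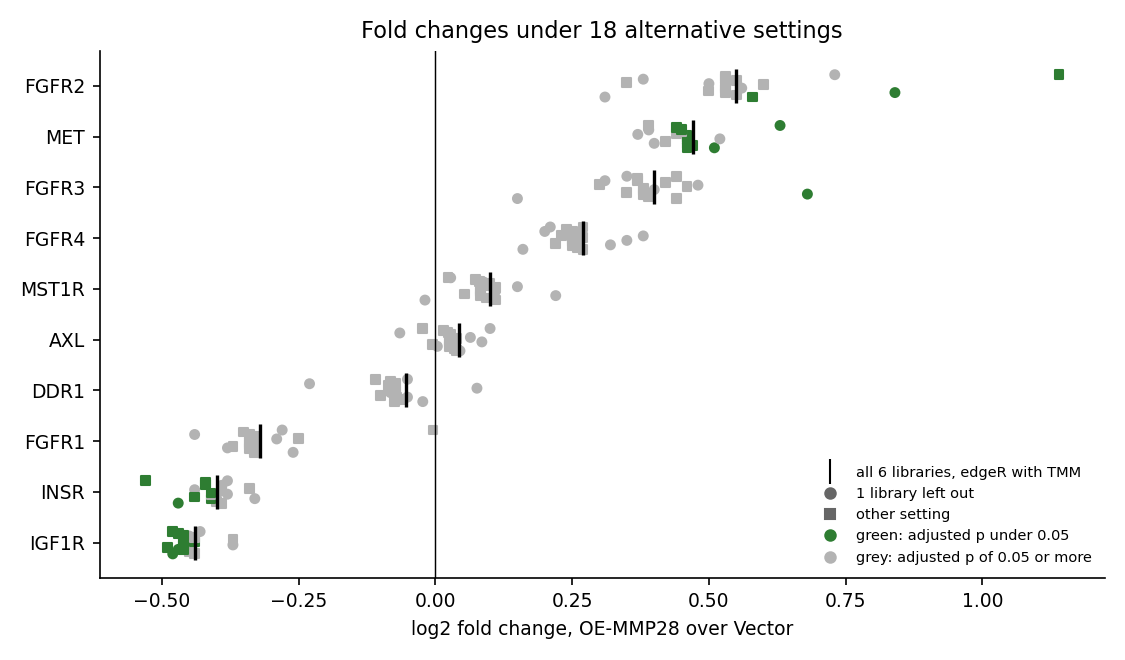
Log2 fold change of each receptor under 18 alternative settings, with circles where 1 library was left out, squares for other settings, green where the adjusted p was under 0.05 and grey where it was not, and a black bar for the value from all 6 libraries. MET, IGF1R, INSR and FGFR1 to FGFR4 stay on 1 side of 0 throughout, from 0.37 to 0.63 for MET and from -0.49 to -0.37 for IGF1R, while MST1R, AXL and DDR1 cross it.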

How the data were processed

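RNA of 6 AsPC-1 libraries, 3 Vector and 3 OE-MMP28, was analysed. Groups and replicate numbers were read from the titles, with NC taken as Vector and OE as OE-MMP28. Raw counts of reads per gene, whole numbers with no normalization, were deposited by the authors in 1 table. The same table held the deposited FPKM values, scaled by the authors to gene length and library depth. The submitters' processing notes name HISAT2 2.0.5 and featureCounts 1.5.0-p3. The build and the settings for strand and multi-mapped reads were not given in the sources used here. For all 58735 genes the identifier and position matched GENCODE release 29 on GRCh38, and 58708 symbols matched. The authors' columns on their own comparison (group means, fold changes on the log2 scale, raw and adjusted p) were not used.

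Genes were filtered with filterByExpr (minimum count 10, minimum total 15), scaled by TMM and tested with the quasi-likelihood test of edgeR 4.0.16 in R 4.3.3, without a block. Values of p were adjusted by Benjamini-Hochberg over 15319 genes, with a threshold of 0.05. The study's methods name limma, which does not take raw counts without a transformation, so limma 3.58.1 and DESeq2 1.42.0 were alternatives, with upper-quartile and median-of-ratios scaling, no and stricter filters, FPKM with pseudocounts of 1 and 0.1, protein-coding genes only, counts without mitochondrial genes, an offset by the median of the genes tested within 5 Mb on each side (at least 10), a replicate block and each library left out. The offset came from the same libraries and was entered as a fixed value, so p-values against neighbouring genes do not carry its spread. Ratios were compared by exact permutation tests in scipy 1.17.1. The scripts were tested on simulated counts. No 2 libraries of the same group agreed within sampling noise.

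Depth was 13633249 to 16691458 counts per library, so 3 counts, the limit that a count of 0 allows, equal 0.18 to 0.22 CPM. Such limits cover counting error only. Named genes were the 10 members, MMP28, from each list up to 6 called genes at 1 FPKM or more on average in order of absolute log2 fold change, and for each called member the 3 genes of most similar pattern. The members and lists were chosen with earlier results of these data known.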

Additional observations from a re-analysis of the deposited data

How the results depend on the processing

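Over 18 alternatives MET kept its direction in all and its call in 10, IGF1R in all and in 11, and INSR passed the threshold in 7. Leaving out 1 library moved the members called higher between 0 and 2, those called lower between 0 and 2, all genes called higher from 1795 to between 985 and 1916, and all genes called lower from 1784 to between 1044 and 1949. Of the members, 0 were higher with upper-quartile scaling and with limma on log2(FPKM + 1) or log2(FPKM + 0.1), and 0 were lower without a filter and with either limma fit. With the stricter filter, upper-quartile scaling, DESeq2, protein-coding genes only, no mitochondrial genes or the offset for neighbouring genes 2 were lower, namely IGF1R and INSR. The offset left 1137 genes higher, and FGFR2 in place of MET (adjusted p = 0.0978) as the member called higher. The replicate numbers did not pair the samples, since deviations of same-numbered libraries correlated at 0.0168, 0.00798 and -0.0876 and no library correlated best with its own number. With the replicate block 2 members were higher, MET and FGFR2, and 0 lower, with IGF1R at an adjusted p of 0.0528. The sign turned for the INSR to IGF1R ratio without Vector replicate 3 (-0.0054, highest 0.14 when 1 library was left out), MST1R without Vector replicate 1 (-0.019, highest 0.22), AXL without OE-MMP28 replicate 2 (-0.065), with upper-quartile scaling (-0.0049) and with the offset (-0.024), and DDR1 without OE-MMP28 replicate 1 (0.076, lowest -0.23). With the offset it also turned for ST14 (-0.039), SDC1 (0.04) and MBNL1 (-0.034). These last calls were lost with the offset, as were those of CDH1, SOS1, SH2B3, ESRP1, PIK3CB, SPINT2, PCSK5 and PCSK6. On log2(FPKM + 1) ROR1 (0.90), EPHA10 (-0.50), CBLB (-0.65) and ENPP1 (-0.49) moved by over 1.5 times and kept their calls. The cause of these changes was not tested. Among the members counts were lowest for FGFR2 and FGFR3, at 105 to 301 and 108 to 256 per library. Their Vector libraries also spread widely, from 0.906 to 1.96 and from 1.46 to 3.11 FPKM.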
